A study of Homo sapiens with 30 samples.

Results

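The 7 human APOBEC3 cytidine deaminase genes, APOBEC3A, APOBEC3B, APOBEC3C, APOBEC3D, APOBEC3F, APOBEC3G and APOBEC3H, were followed by RNA sequencing through cultures of diffuse large B cell lymphoma, an aggressive cancer of mature B cells. They were picked by gene symbol and are 7 of the 60656 genes listed. Polyadenylated RNA was sequenced in 30 libraries from 10 groups of 3. In 8 of these groups 4 cell lines, namely OCI-LY3 and HT, OCI-LY19 and SUDHL5, had been exposed for 24 h to doxorubicin at 0.2 µM or were untreated at 0 h. Doxorubicin is a chemotherapy drug that traps topoisomerase II on broken DNA. The other 2 groups were OCI-LY19R, a derivative of OCI-LY19 with acquired resistance that was kept in 20 nM doxorubicin until a week before use, and OCI-LY19S, the sensitive parent kept without drug. All 4 lines carry the label WT for genotype. With untreated libraries at 0 h alone, the effects of drug and of time in culture cannot be told apart, and OCI-LY19R is a lone derivative. The 24 h libraries were taken as treated from their treatment label, although their titles also contain ctrl.

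APOBEC3 enzymes remove the amino group from cytosine in DNA strands that are not base-paired, which leaves uracil. They are best known for blocking retroviruses and mobile elements: APOBEC3D, APOBEC3F, APOBEC3G and APOBEC3H restrict HIV-1 lacking its Vif protein, which otherwise links them to a ubiquitin ligase for destruction. APOBEC3A and APOBEC3B are also linked to clustered C-to-T and C-to-G mutations in tumour genomes, and many lymphoid cells transcribe several of these genes.

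The genes lie side by side on the plus strand of chromosome 22, band q13. In GENCODE 29 on GRCh38, the group runs from APOBEC3A, whose annotated start is 38952741, through APOBEC3B (38982347 to 38992804), APOBEC3C (39014083 to 39020352), APOBEC3D (39021113 to 39033276), APOBEC3F (39040604 to 39053910) and APOBEC3G (39077005 to 39087743) to APOBEC3H (39097224 to 39104067). Near-identical copies limit what a read count can separate. Of all 75-base windows in the annotated transcripts, 30.7% of those of APOBEC3B, 21.1% of APOBEC3A, 16.5% of APOBEC3F, 11.0% of APOBEC3D, 5.98% of APOBEC3G, 0.249% of APOBEC3C and 0% of APOBEC3H recur in another of the 7 genes, so the values of APOBEC3B and APOBEC3F are less certain than those of APOBEC3C and APOBEC3H. APOBEC3A and APOBEC3B also share 348 exonic bases through a readthrough transcript.

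Levels are the authors' FPKM values, which divide reads by gene length and sequencing depth, so they may be set side by side between genes within a library. Whole reads recovered from them summed to 16058799 to 38313994 per library of the 4 lines, to 23681696 to 33290457 in OCI-LY19R and to 18274980, 20464856 and 121230407 in OCI-LY19S. Replicates of SUDHL5 differed less than those of any other group, with a chi-square per degree of freedom of 1.92 to 5.19 between libraries against 6.58 to 91.2 elsewhere. p-values therefore measure the spread between these libraries, which may be partly technical. Of 8 B cell markers, 6 to 8 reached an FPKM of 1 in every group, with summed levels from 264 to 1570. Markers of T and NK cells summed to 0.764 to 19.8 FPKM, and those of myeloid cells to 0.0944 to 26.3.

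In untreated cultures APOBEC3C, a member found in many tissues, was the highest of the 7 genes in every line. Its FPKM was 10.7, 11.2 and 11.9 in OCI-LY3, 0.747, 0.569 and 0.787 in HT, 24.4, 25.1 and 27.0 in OCI-LY19, and 35.3, 34.0 and 34.3 in SUDHL5. The 4 lines do not overlap, SUDHL5 being the highest and HT the lowest, and each neighbouring pair in the order of levels differed (limma on log2(FPKM + 1), adjusted p 0.000456 for OCI-LY19 minus SUDHL5, 2.25e-09 for OCI-LY3 minus OCI-LY19 and 1.14e-15 for OCI-LY3 minus HT). Over all genes tested, 71.0%, 62.8% and 62.1% differed in these 3 contrasts. HT was also the line with almost no RNA of the HIV-1 restriction genes.

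APOBEC3G, the best-studied HIV-1 restriction factor of the family, averaged 1.45 ± 0.430 FPKM in untreated OCI-LY3, 0.0467 ± 0.0405 in HT, 4.0 ± 0.491 in OCI-LY19 and 3.34 ± 0.0959 in SUDHL5 (SD, n = 3 libraries). APOBEC3F, its close relative, averaged 0.127 ± 0.0615 FPKM in OCI-LY3, 0.0341 ± 0.0203 in HT, 1.28 ± 0.152 in OCI-LY19 and 1.40 ± 0.0417 in SUDHL5. APOBEC3H stood at 0.0308 ± 0.0305 FPKM in OCI-LY3, had no read in HT, and stood at 0.794 ± 0.320 in OCI-LY19 and 0.75 ± 0.0441 in SUDHL5. APOBEC3B, which has a nuclear protein, averaged 0.0334 ± 0.0306 FPKM in OCI-LY3, 0.0620 ± 0.0749 in HT, 2.30 ± 0.701 in OCI-LY19 and 4.36 ± 0.275 in SUDHL5. A moderated F test across the untreated lines passed for all 5 members that cleared the level filter (adjusted p from 1.18e-18 for APOBEC3C to 5.46e-06 for APOBEC3H), as it did for 90.5% of all genes tested. Neighbours that did not differ beyond their spread were OCI-LY19 and SUDHL5 for APOBEC3F (adjusted p 0.453), APOBEC3G (0.067) and APOBEC3H (0.912), and OCI-LY3 and HT for APOBEC3B (0.835), APOBEC3F (0.236) and APOBEC3H (0.835). The APOBEC3F difference between OCI-LY3 and HT passed with a pseudocount of 0.1 (0.00653), on the TPM scale (0.0449), with quantile normalization (0.0268) and on the recovered reads (0.00685). That of APOBEC3G between OCI-LY19 and SUDHL5 passed on the TPM scale (0.0242).

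**Figure D1:**
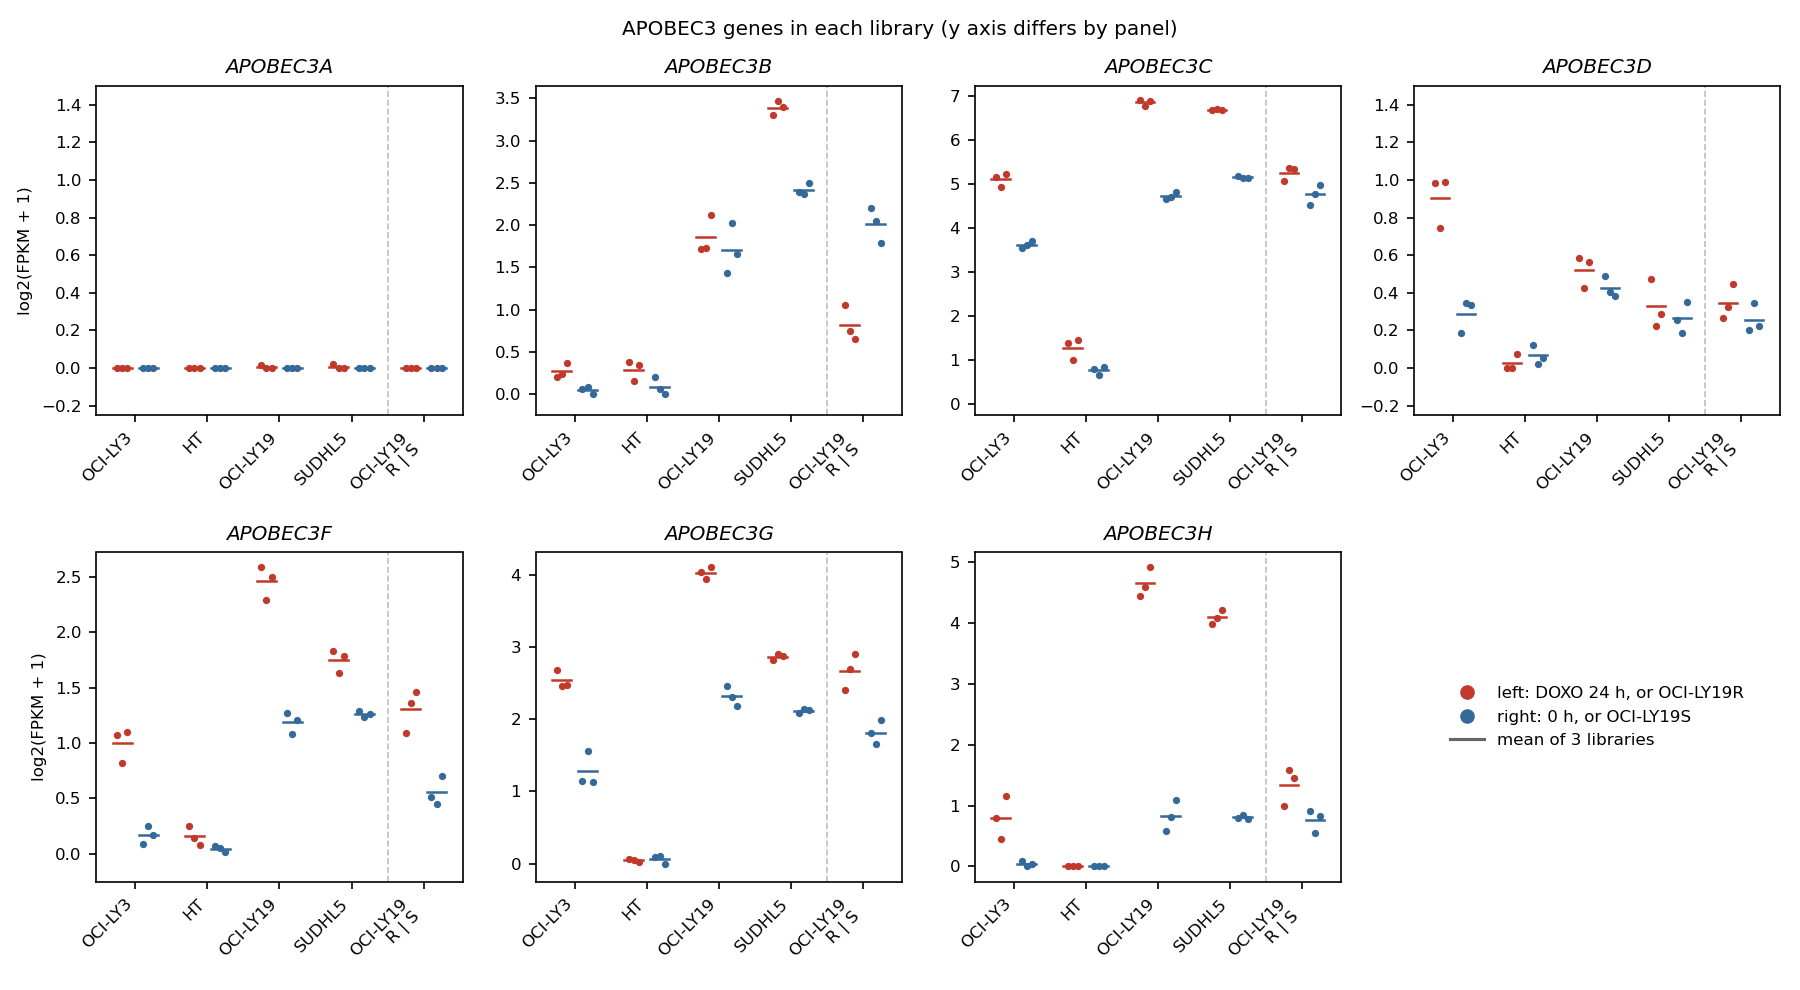
Level of each APOBEC3 gene in each library, as log2(FPKM + 1), with its own y axis per gene; red dots at the left of each pair are 24 h doxorubicin libraries or OCI-LY19R, blue dots at the right are 0 h libraries or OCI-LY19S, and bars are means of 3. APOBEC3H lies near the bottom of its panel at 0 h and between 14.9 and 29.1 FPKM in treated OCI-LY19 and SUDHL5, while HT stays at or below 1.73 FPKM in every panel.

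After 24 h of doxorubicin, 4 of the 5 tested members rose in OCI-LY3, where 40.4% of all genes tested were higher. In OCI-LY19, 4 of 5 rose against 34.5% of all genes, in SUDHL5 5 of 5 against 18.6%, and in HT 1 of 5 against 22.9%. No member fell in any of the 4 lines, where 14.3% of genes fell in OCI-LY3, 23.7% in OCI-LY19, 19.9% in SUDHL5 and 9.41% in HT. APOBEC3A and APOBEC3D did not clear the filter of FPKM 1 in 3 libraries and were not tested. Where treated and untreated libraries of a gene are said not to overlap, the share of all genes without overlap was not counted. APOBEC3H reached FPKM 1 in all 6 treated OCI-LY19 and SUDHL5 libraries and in 2 others, so it cleared the filter where it was high and its calls there are a description. Of all calls, 73.9% were higher in OCI-LY3, 70.9% in HT, 59.3% in OCI-LY19 and 48.4% in SUDHL5. Median-of-ratios scaling made this 51.5% in OCI-LY3 and 55.9% in HT, quantile normalization 44.7% in OCI-LY19 and TPM scaling 38.1% in SUDHL5. The median gene of OCI-LY3 was higher by 0.16 on the log2(FPKM + 1) scale, so member changes there read against that shift, and 4 of 5 members rose under median-of-ratios and quantile scaling and 5 of 5 on the TPM scale.

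APOBEC3H, whose protein is the most divergent of the family and occurs in stable and unstable natural variants, had the largest change of the 7 genes in OCI-LY19 and SUDHL5. In OCI-LY19 its FPKM was 20.8, 23.2 and 29.1 with doxorubicin, against 0.499, 0.749 and 1.13 at 0 h. In SUDHL5 it was 14.9, 15.9 and 17.6 with doxorubicin, against 0.729, 0.801 and 0.721 at 0 h. In both lines every treated library lay far above every untreated one, with a ratio of means of 30.7 in OCI-LY19 and 21.5 in SUDHL5. The log2(FPKM + 1) change was 3.83 ± 0.14 (SE) in OCI-LY19 (limma, adjusted p 5.06e-14) and 3.29 ± 0.14 in SUDHL5 (1.75e-12).

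In OCI-LY3, APOBEC3H was also higher with doxorubicin, but from next to nothing. Its FPKM was 0.728, 0.366 and 1.23 in treated libraries, against 0.0611, 0 and 0.0313 at 0 h, which is 73 reads against 3. The groups do not overlap, the change was 0.76 ± 0.14 (adjusted p 0.000156), and the ratio of depth-scaled reads was 25.2 with a 95% exact interval of 8.28 to 125. This interval covers counting error only. All 6 HT libraries had 0 reads of APOBEC3H, which allows up to 3 reads in each.

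The start of APOBEC3H is shown because this gene had the largest change in those lines. The RefSeq window of 300 bases on GRCh38.p14, chr22:39096994-39097293, plus strand, holds 250 bases before the start and 50 after it. Capitals mark a run of 23 bases that occurs in 2 copies spaced 26 bases apart, the first copy beginning 25 bases before the start.
APOBEC3H: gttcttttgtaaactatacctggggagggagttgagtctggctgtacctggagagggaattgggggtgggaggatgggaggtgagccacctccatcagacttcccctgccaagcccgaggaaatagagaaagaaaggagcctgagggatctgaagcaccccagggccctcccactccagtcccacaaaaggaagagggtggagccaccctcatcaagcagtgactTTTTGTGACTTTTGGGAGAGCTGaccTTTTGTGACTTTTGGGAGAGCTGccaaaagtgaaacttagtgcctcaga
A repeat of at least 23 bases without overlap was found in 1.31% of the 35116 RefSeq windows of this length. On both strands the window held 1 CCAAT (found in 34.6% of all windows). It held no GAAA followed after 2 bases by another GAAA, the core of the interferon-stimulated response element (3.57%). It held no TTCCCGC (6.55%) or TTGGCGC (3.04%), forms of the E2F site, no GGGCGG (45%), no TATAAA (11.5%), and no match to the 10-base p53 motif (6.63%) or the NF-kB motif (11.3%). These matches are letters in this window and say nothing of binding.

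APOBEC3C rose in all 4 lines. In OCI-LY19 its FPKM was 119, 108 and 117 with doxorubicin, against 24.4, 25.1 and 27.0 at 0 h, a change of 2.13 ± 0.09 (adjusted p 5.53e-13). In SUDHL5 it was 101, 104 and 101 with doxorubicin, against 35.3, 34.0 and 34.3 at 0 h (1.53 ± 0.09, 1.79e-10). In OCI-LY3 it was 34.4, 29.4 and 36.5 with doxorubicin, against 10.7, 11.2 and 11.9 at 0 h (1.48 ± 0.09, 2.93e-10). No treated library of these lines overlapped an untreated one, and treated OCI-LY19 and SUDHL5 ended near the same level although OCI-LY19 started lower. In HT the values were 1.62, 1.01 and 1.73 with doxorubicin, against 0.747, 0.569 and 0.787 at 0 h. The groups do not overlap and the change of 0.52 ± 0.09 passed (0.00032), but with HT fitted alone the adjusted p was 0.0509.

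The HIV-1 restriction factors APOBEC3G and APOBEC3F rose in OCI-LY3, OCI-LY19 and SUDHL5, and neither passed in HT. APOBEC3G had 15.5, 14.4 and 16.2 FPKM in treated OCI-LY19, against 4.51, 3.97 and 3.52 at 0 h (change 1.72 ± 0.09, adjusted p 1.68e-11). It had 6.08, 6.46 and 6.34 FPKM in treated SUDHL5, against 3.23, 3.41 and 3.37 at 0 h (0.75 ± 0.09, 3.44e-06). In OCI-LY3 it had 5.39, 4.52 and 4.55 FPKM with doxorubicin, against 1.21, 1.94 and 1.19 at 0 h (1.26 ± 0.09, 2.45e-09). The groups are apart in each of these lines, while HT gave 15 reads with doxorubicin and 18 at 0 h over its 3 libraries.

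APOBEC3F had 5.02, 3.88 and 4.66 FPKM in treated OCI-LY19, against 1.41, 1.11 and 1.31 at 0 h (1.27 ± 0.09, adjusted p 3.6e-10). In SUDHL5 the values were 2.56, 2.09 and 2.45 with doxorubicin, against 1.44, 1.36 and 1.39 at 0 h (0.49 ± 0.09, 0.000171). In OCI-LY3 they were 1.10, 0.766 and 1.15 with doxorubicin, against 0.0659, 0.189 and 0.128 at 0 h (0.83 ± 0.09, 1.7e-07). Again the groups do not overlap. The log scale understates the OCI-LY3 change, since the ratio of means was 7.89 there, 3.47 in HT, 3.53 in OCI-LY19 and 1.69 in SUDHL5. In HT, APOBEC3F had 46 reads with doxorubicin and 13 at 0 h, with no overlap between the groups. Its change of 0.11 there did not pass (0.376), though it did with a pseudocount of 0.1 (0.0264) and on the recovered reads (limma voom, 0.0322).

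APOBEC3D, the remaining restriction factor, was low everywhere. It had 0.979, 0.674 and 0.987 FPKM in treated OCI-LY3, against 0.136, 0.270 and 0.263 at 0 h, with no overlap and a ratio of means of 3.95. Without the level filter this change was 0.62 (adjusted p 4.88e-06). Its treated and untreated libraries overlapped in HT, OCI-LY19 and SUDHL5, where no library exceeded 0.498 FPKM.

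APOBEC3B passed in SUDHL5 and in none of the other lines. In SUDHL5 its FPKM was 8.86, 10.1 and 9.51 with doxorubicin, against 4.23, 4.17 and 4.67 at 0 h, a change of 0.97 ± 0.12 (adjusted p 3.36e-06) with no overlap. In OCI-LY19 it was 2.29, 2.33 and 3.35 with doxorubicin, against 1.69, 3.07 and 2.14 at 0 h. These libraries overlap and the change of 0.16 ± 0.12 did not pass (0.297). It passed at 0.32 without replicate 2 of untreated OCI-LY19 (0.0226), and at 0.35 with the tag in the library names as a covariate (0.013). No other library carries the tag of that replicate, so the covariate also takes it out of the contrast. These alternatives are therefore not separate checks. OCI-LY3 had 29 reads with doxorubicin and 5 at 0 h, without overlap, and HT 32 and 8, with overlap. Their changes of 0.22 and 0.20 did not pass (0.142 and 0.228), and both passed with a pseudocount of 0.1 (0.00234 and 0.0127) and on the recovered reads (0.00986 and 0.0249). APOBEC3B-AS1, a transcript antisense to APOBEC3B that shares 244 exonic bases with it, rose in SUDHL5 as well (5.80 ± 0.760 FPKM with doxorubicin and 2.83 ± 0.397 at 0 h, change 0.83, 6.49e-05). Whether the counting used strand is not given in the sources used here, so reads of the pair may be mixed.

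APOBEC3A, a mutator found mainly in myeloid cells, had 0 reads in 28 of 30 libraries. The exceptions were 1 read in a treated OCI-LY19 library and 1 in a treated SUDHL5 library.

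**Figure D2:**
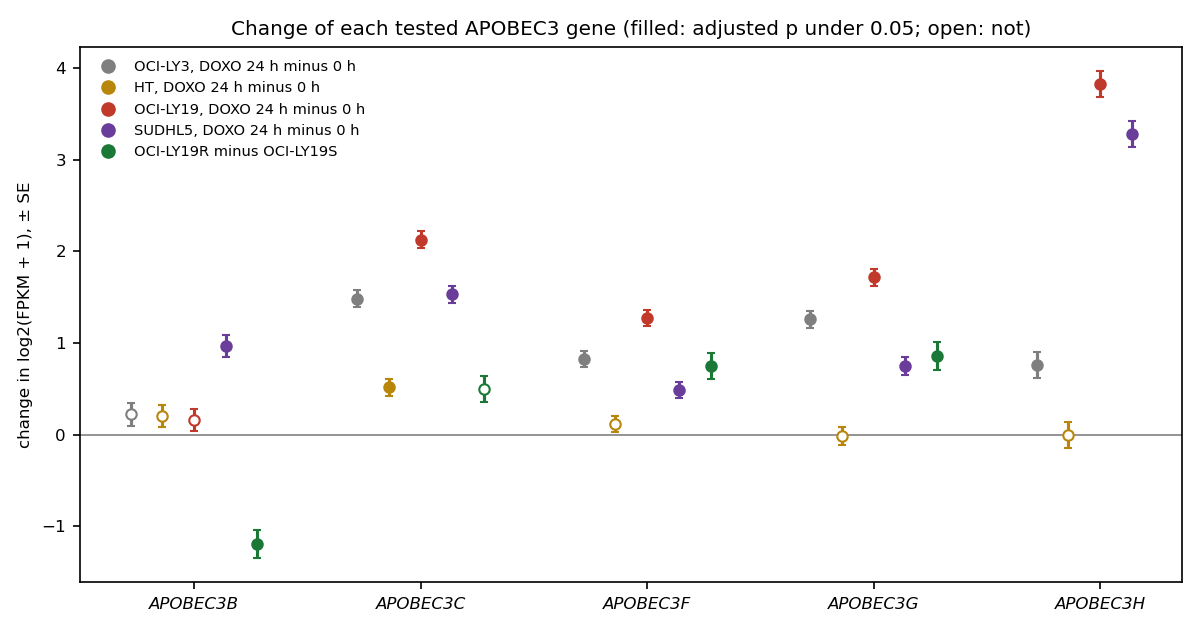
Change in log2(FPKM + 1) of the 5 tested APOBEC3 genes, with bars of 1 standard error; colours are the 4 doxorubicin comparisons and OCI-LY19R minus OCI-LY19S, and filled symbols passed an adjusted p of 0.05. APOBEC3H reaches 3.83 in OCI-LY19 and 3.29 in SUDHL5, and APOBEC3B has the lowest value plotted, -1.19 in OCI-LY19R.

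The size of the response differed among the 4 lines for all 5 tested members (moderated F test), as it did for 72.2% of all genes tested. APOBEC3H and APOBEC3G differed most, with an adjusted p of 1.67e-11 and 1.58e-08. APOBEC3H cleared the level filter mainly through treated OCI-LY19 and SUDHL5, where it is high, so its differences between lines are a description. The APOBEC3B response was smaller in OCI-LY19 than in SUDHL5 by 0.81 ± 0.17 (adjusted p 0.000851), and APOBEC3C, APOBEC3F and APOBEC3G went the other way, with responses larger in OCI-LY19 by 0.59, 0.79 and 0.97 (0.00124, 4.34e-05 and 1.11e-05), in a contrast that 43.9% of all genes passed. The APOBEC3C call was lost without replicate 1 of each group (0.0752). With a pseudocount of 0.1 the APOBEC3B difference did not pass (0.107). The APOBEC3H response was larger in OCI-LY19 than in SUDHL5 by 0.54 ± 0.20 (0.0366), a call that was lost without replicate 1 (0.223) or 2 (0.138) of each group, with a pseudocount of 0.1 (0.28), with no filter (0.0714), with median-of-ratios scaling (0.145), on the recovered reads (0.277) and on the TPM scale (0.0807). Between OCI-LY3 and OCI-LY19, APOBEC3H differed by -3.07 ± 0.20 on the log2(FPKM + 1) scale (6.05e-10, in a contrast that 47.7% of all genes passed), but by -0.79 on the recovered reads (0.446), where the fold counts and not the absolute level.

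Summed over the 7 genes, the level was 162 ± 9.47 FPKM in treated OCI-LY19 and 34.2 ± 1.27 at 0 h, and 136 ± 2.39 in treated SUDHL5 and 44.6 ± 0.605 at 0 h. It was 41.1 ± 4.60 in treated OCI-LY3 and 13.2 ± 0.793 at 0 h, and 1.85 ± 0.510 in treated HT and 0.892 ± 0.191 at 0 h. APOBEC3C made up 70.8% to 85.9% of this sum in each of the 10 groups. The share of APOBEC3H was 15.0% ± 2.15 in treated OCI-LY19 and 2.30% ± 0.849 at 0 h, and 11.8% ± 0.881 in treated SUDHL5 and 1.68% ± 0.121 at 0 h. That of APOBEC3B was 1.63% ± 0.292 in treated OCI-LY19 and 6.71% ± 1.98 at 0 h.

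**Figure D3:**
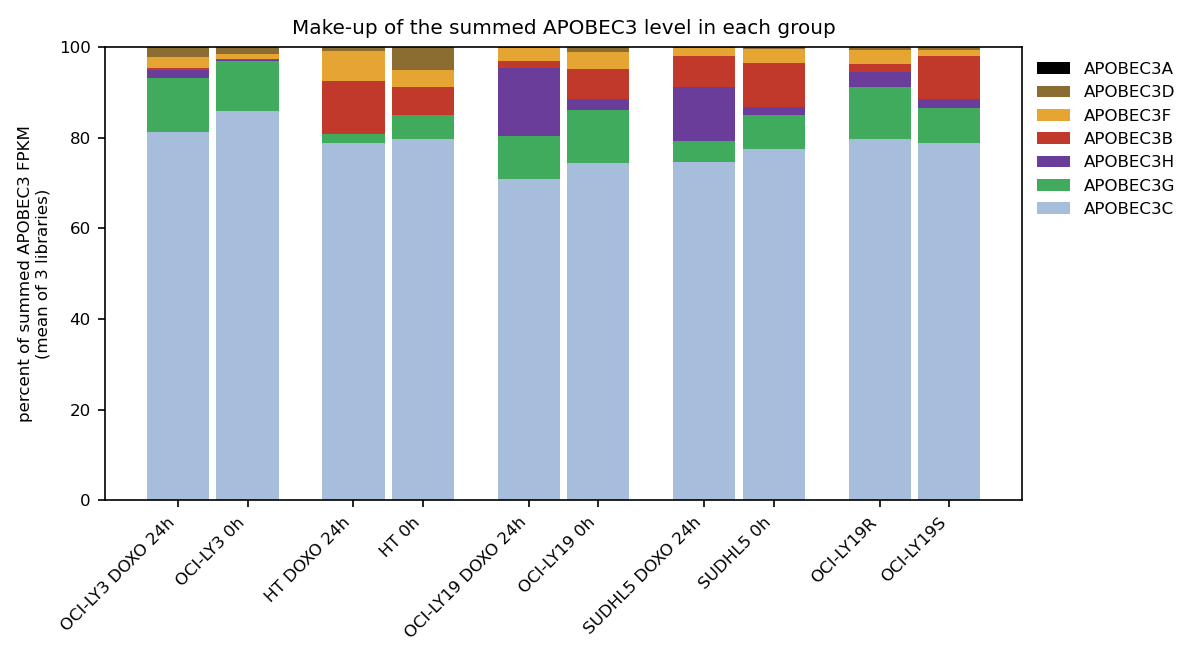
Make-up of the summed APOBEC3 level in each of the 10 groups, as the mean percent of summed FPKM over 3 libraries; within each pair the 24 h doxorubicin group or OCI-LY19R stands left of the 0 h group or OCI-LY19S. APOBEC3C fills 70.8% to 85.9% of each bar, and APOBEC3H widens to 15.0% in treated OCI-LY19 and 11.8% in treated SUDHL5.

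In the resistant derivative the pattern split. APOBEC3B fell, with an FPKM of 1.07, 0.679 and 0.577 in OCI-LY19R, against 3.62, 3.13 and 2.45 in OCI-LY19S (change -1.19 ± 0.16, adjusted p 0.0127), where 2.34% of all genes tested were lower. APOBEC3F and APOBEC3G rose, where 3.11% of genes were higher. APOBEC3G had 4.32, 5.50 and 6.50 FPKM in OCI-LY19R, against 2.50, 2.15 and 2.96 in OCI-LY19S (0.86 ± 0.15, 0.0285). APOBEC3F had 1.13, 1.56 and 1.76 FPKM in OCI-LY19R, against 0.428, 0.364 and 0.630 in OCI-LY19S (0.75 ± 0.14, 0.0326). Neither gene's libraries overlapped between the groups, nor did those of APOBEC3B. Libraries of APOBEC3C and APOBEC3H, neither of which was called, did not overlap either, so this trait is not particular to the called genes. The share of all genes without overlap was not counted. APOBEC3F cleared the level filter through the OCI-LY19R libraries alone, so it had to be higher there, and APOBEC3B cleared it through the 3 OCI-LY19S libraries and 1 of OCI-LY19R. These 3 calls rest on 4 residual degrees of freedom: all 3 were lost without replicate 2 of OCI-LY19S, replicate 2 of OCI-LY19R or replicate 3 of OCI-LY19R, with adjusted p from 0.0564 to 0.147, and that of APOBEC3F also without replicate 3 of OCI-LY19S (0.0531) and with the replicate number as a block (0.0607). All 3 were also lost with no level filter (0.0635 for APOBEC3B, 0.118 for APOBEC3F and 0.104 for APOBEC3G) and passed with a pseudocount of 0.1, under each scaling and on the recovered reads.

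APOBEC3C had 32.3, 40.3 and 39.7 FPKM in OCI-LY19R, against 22, 26.4 and 30.5 in OCI-LY19S, and its change of 0.50 ± 0.14 did not pass (0.0974). APOBEC3H had 0.980, 2.0 and 1.75 FPKM in OCI-LY19R, against 0.871, 0.467 and 0.781 in OCI-LY19S. It did not clear the filter there, and without it the change of 0.58 did not pass (0.295). These APOBEC3H levels are far below the 20.8 to 29.1 FPKM of OCI-LY19 under doxorubicin, although the 2 tables were normalized separately and were not tested against each other. APOBEC3D had 0.201 to 0.366 FPKM in OCI-LY19R and 0.151 to 0.269 in OCI-LY19S, and APOBEC3A had no read in either. APOBEC3B-AS1 fell with APOBEC3B (0.516 ± 0.212 FPKM in OCI-LY19R and 1.90 ± 0.270 in OCI-LY19S, change -0.94, adjusted p 0.0186). It cleared the level filter through the OCI-LY19S libraries alone, so it had to be lower in OCI-LY19R.

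In the authors' deposited table for OCI-LY19R against OCI-LY19S, 5.15% of genes with an adjusted p were higher and 5.35% lower at 0.05. That table gives APOBEC3B a log2 fold change of -2.02 (adjusted p 1.76e-09), APOBEC3F 1.52 (4.86e-06) and APOBEC3G 1.02 (2.78e-05). The authors' deposited table has values that do not pass for APOBEC3H (1.06, 0.0732), APOBEC3C (0.43, 0.102) and APOBEC3D (0.42, 0.786).

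The summed level of the 7 genes was 47.0 ± 6.06 FPKM in OCI-LY19R and 33.3 ± 3.96 in OCI-LY19S. The APOBEC3B share of it was 1.72% ± 0.837 in OCI-LY19R and 9.44% ± 2.85 in OCI-LY19S, and that of APOBEC3G was 11.5% ± 1.14 in OCI-LY19R and 7.64% ± 0.986 in OCI-LY19S.

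Genes on either side of the cluster were set beside it. Of the listed neighbours SUN2, DNAL4, NPTXR, CBX6, CBX7, PDGFB, RPL3 and SYNGR1, 6 were tested in the 4 lines. In SUDHL5, where all 5 tested APOBEC3 genes rose, none of the 6 rose and 2 fell: DNAL4, a dynein light chain gene, by 0.38 on the log2(FPKM + 1) scale (adjusted p 0.00456) and SUN2, a nuclear envelope gene, by 0.28 (0.00209). In OCI-LY19, 5 neighbours rose and 1 fell. The largest neighbour change there was 0.91 for SYNGR1, a synaptic vesicle gene, below the 1.27 to 3.83 of APOBEC3C, APOBEC3F, APOBEC3G and APOBEC3H. In OCI-LY3, 3 of 6 rose and 1 fell, in HT 2 rose and 1 fell, and in OCI-LY19R none of 5 tested passed in either direction. Among all genes tested, 18.6% rose and 19.9% fell in SUDHL5, and 34.5% rose and 23.7% fell in OCI-LY19. The shares were 40.4% and 14.3% in OCI-LY3, and 22.9% and 9.41% in HT.

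**Figure D4:**
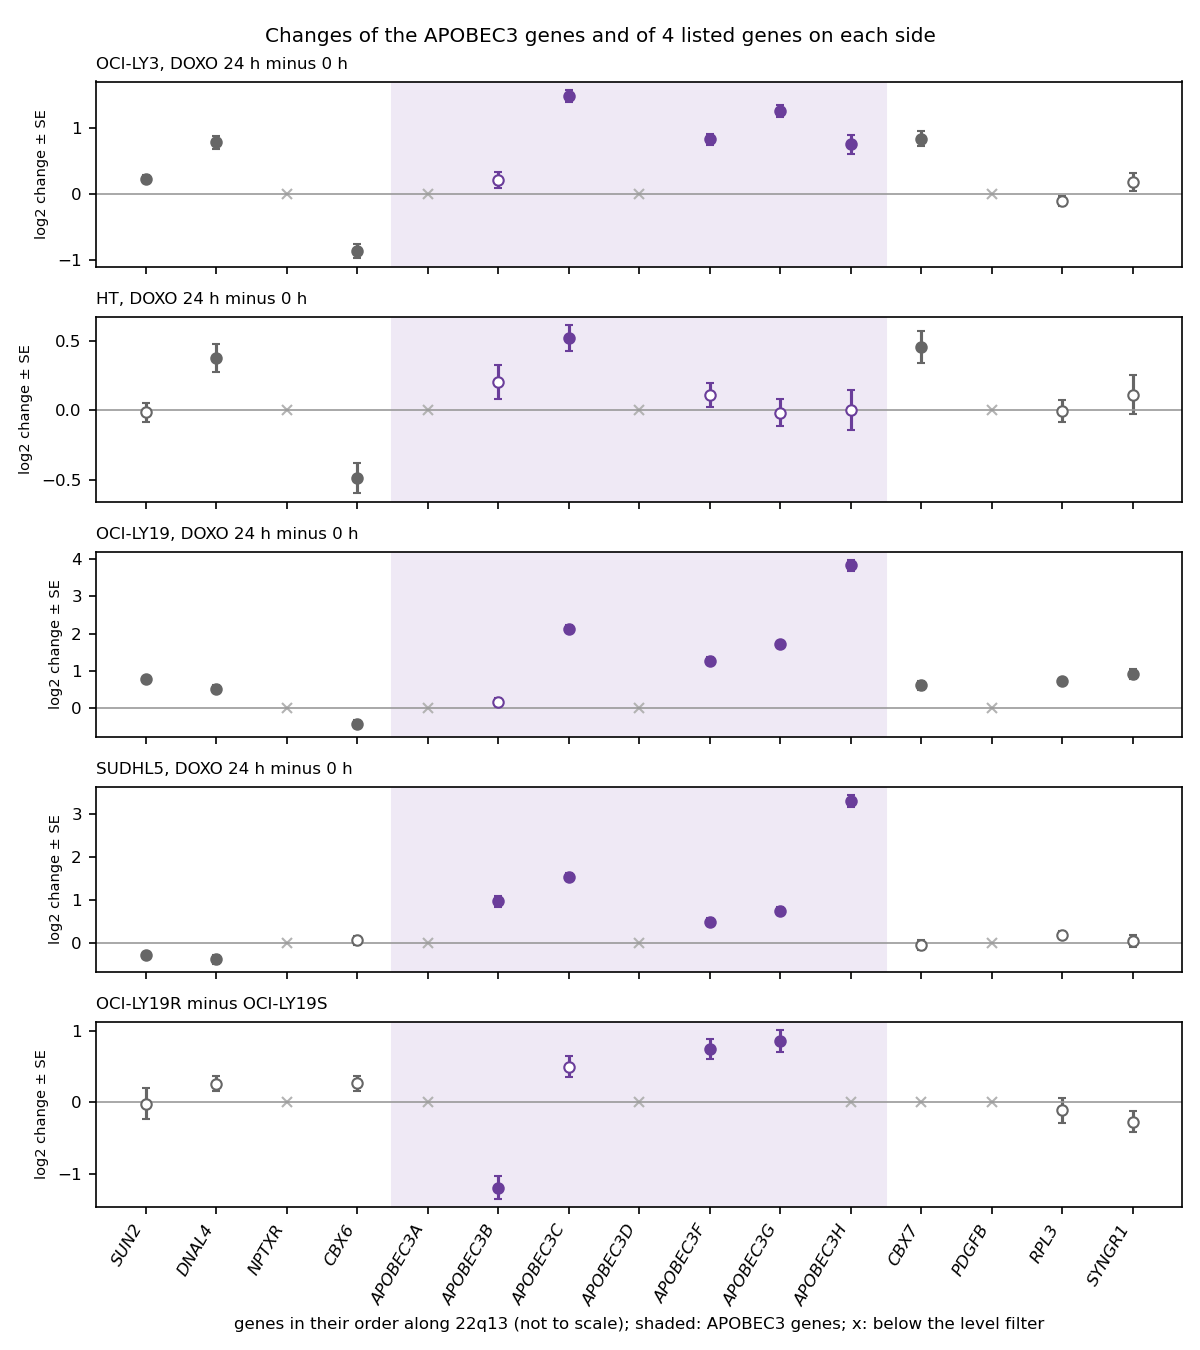
Changes in log2(FPKM + 1) with 1 standard error, with the genes in their order along 22q13 (not to scale), a panel for each comparison and its own y axis; purple symbols on the shaded band are APOBEC3 genes, grey ones their neighbours, filled symbols passed an adjusted p of 0.05 and crosses mark genes below the level filter. In SUDHL5 the APOBEC3 genes lie between 0.49 and 3.29 and the neighbours at or below 0.20, while in OCI-LY19 neighbours are also raised.

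Other members of the wider family were nearly silent: APOBEC3B-AS1 was the lone tested gene of a list that also held APOBEC1, APOBEC2, APOBEC4 and A1CF. Over the 8 group means of the 4 lines, the genes whose log2(FPKM + 1) pattern was most like each member's among 7978 genes were found by Pearson's r. For APOBEC3H these were PPM1D (0.989), a phosphatase gene, and DINOL (0.987), a noncoding RNA, and for APOBEC3F CDKN1A (0.977) and ZSWIM6 (0.972). APOBEC3G was most like FGD3 (0.990) and ZSWIM6 (0.988), APOBEC3C PLCL2 (0.985) and FAM193A (0.981), and APOBEC3B SEMA6C (0.977) and LAX1 (0.976). The 8 points share lines and normalization, so these are descriptions without a p.

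Reporters of p53, the transcription factor that responds to DNA damage, rose in most of their number in OCI-LY19 and SUDHL5. Of 8 such genes, 7 rose and 1 fell in OCI-LY19 (median change 3.38 against 0.08 over all genes tested), 7 rose in SUDHL5 (2.10 against 0.001), 5 in OCI-LY3 (0.71 against 0.16) and 3 in HT (0.22 against 0.06). Among all genes tested, 34.5% rose in OCI-LY19, 18.6% in SUDHL5, 40.4% in OCI-LY3 and 22.9% in HT. CDKN1A, the gene of the cell cycle inhibitor p21, had 524 ± 29.3 FPKM in treated OCI-LY19 and 23.8 ± 2.99 at 0 h, and 236 ± 7.42 in treated SUDHL5 and 13.2 ± 0.410 at 0 h. It had 5.62 ± 2.05 in treated OCI-LY3 and 0.743 ± 0.423 at 0 h, and 0.205 ± 0.0313 in treated HT and 0.151 ± 0.0246 at 0 h. The largest change of the list in OCI-LY19 was in TP53I3, which encodes an oxidoreductase, with 175 ± 49.4 FPKM in treated cells and 6.21 ± 0.75 at 0 h (4.57, adjusted p 1.98e-15). MDM2, which encodes the ligase that degrades p53, changed by 3.77 in OCI-LY19 (adjusted p 3.27e-16) and 1.98 in SUDHL5 (1.03e-11), and did not pass in OCI-LY3 (-0.20, 0.0891) or HT (-0.12, 0.422). In OCI-LY19R, 2 of 8 were higher, where 3.11% of all genes tested were, with a median change of 0.40 against 0.05. They were TP53I3 (0.98, limma, adjusted p 0.0313) and ZMAT3 (0.68), whose adjusted p rounds to the threshold of 0.05. That fit has 4 residual degrees of freedom.

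Of 18 tested interferon response genes, 14 rose in SUDHL5, where 18.6% of all genes were higher, and 11 rose in OCI-LY3, where 40.4% were. In HT 11 rose and 1 fell (22.9% of all genes higher), and in OCI-LY19 10 rose and 2 fell (34.5% higher). Their median changes were 0.48, 0.29, 0.36 and 0.38 in that order of lines, against 0.001, 0.16, 0.06 and 0.08 over all genes tested. TRIM22, an antiviral gene, had 88.0 ± 5.73 FPKM in treated OCI-LY19 and 14.0 ± 1.57 at 0 h (2.58, adjusted p 6.94e-14), and 64.7 ± 2.44 in treated SUDHL5 and 10.7 ± 0.205 at 0 h (2.50, 4.94e-13). IFI6, an interferon-induced gene, had 4.30 ± 2.63 FPKM in treated OCI-LY3 and 0.137 ± 0.120 at 0 h (2.10, 3.02e-06). STAT2, a transducer of interferon signals, had 29 ± 3.45 FPKM in treated OCI-LY3 and 6.37 ± 1.03 at 0 h (2.03, 2.67e-11). IFI6 had 11.3 ± 2.44 FPKM in treated HT and 2.50 ± 0.215 at 0 h (1.79, 8.16e-05). In OCI-LY19R, OAS3, an antiviral gene, was lower (-0.86, adjusted p 0.043), among 15 tested.

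NFKB2 and RELB, the subunits of the non-canonical NF-kB pathway, rose in OCI-LY3 (1.79 and 1.62), HT (1.32 and 1.27) and OCI-LY19 (1.45 and 1.49), each with an adjusted p of 1.45e-06 or less. In SUDHL5 they did not pass (0.19, adjusted p 0.317, and 0.33, 0.0592), and in OCI-LY19R they stood at 3.41 ± 0.291 and 2.79 ± 0.703 FPKM, against 3.59 ± 2.05 and 3.79 ± 2.55 in OCI-LY19S. Of the 7 genes listed, 3 rose in OCI-LY3, 3 rose and 1 fell in HT, 3 rose in OCI-LY19 and 1 rose and 1 fell in SUDHL5. Among all genes tested, 40.4% rose and 14.3% fell in OCI-LY3, and 22.9% rose and 9.41% fell in HT. The shares were 34.5% and 23.7% in OCI-LY19, and 18.6% and 19.9% in SUDHL5, so counts of this short list are near them in several lines. No gene of the 6 tested passed in OCI-LY19R.

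RB, E2F and DREAM genes, which set the G1 to S transition, went in different directions. Of 13 tested, 3 rose and 9 fell in OCI-LY19 (median change -0.85) and 2 rose and 6 fell in SUDHL5 (-0.19), while 8 rose and 2 fell in OCI-LY3 (0.35) and 3 rose and 2 fell in HT (0.16). Among all genes tested, 34.5% rose and 23.7% fell in OCI-LY19, and 18.6% rose and 19.9% fell in SUDHL5. The shares were 40.4% and 14.3% in OCI-LY3, and 22.9% and 9.41% in HT. MYBL2, which drives S-phase and mitotic genes, fell by 1.51 in OCI-LY19 (adjusted p 3.4e-10). RBL2, a repressor subunit of DREAM, rose there by 1.62 (5.94e-10). None of 12 tested passed in OCI-LY19R.

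Uracil left by these enzymes is removed by base excision repair or handled by mismatch repair and bypass polymerases. Of 20 such genes, 3 rose and 12 fell in OCI-LY19 and 5 rose and 10 fell in SUDHL5, while 11 rose and 6 fell in OCI-LY3 and 4 rose and 4 fell in HT. Among all genes tested, 34.5% rose and 23.7% fell in OCI-LY19, and 18.6% rose and 19.9% fell in SUDHL5. The shares were 40.4% and 14.3% in OCI-LY3, and 22.9% and 9.41% in HT. UNG, the main uracil glycosylase, had 20.2 ± 3.71 FPKM in treated OCI-LY19 and 43.2 ± 2.36 at 0 h (-1.07, adjusted p 3.6e-08), and 20.1 ± 2.36 in treated SUDHL5 and 35.9 ± 0.761 at 0 h (-0.81, 3.18e-06). POLH, a bypass polymerase, rose by 1.27 in OCI-LY19 (4.3e-09). APEX1, the endonuclease that cuts the abasic site, fell by 1.23 in OCI-LY3 (9.65e-11). None of the 20 passed in OCI-LY19R, where the median change was -0.09 against 0.05 over all genes.

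Genes of the cullin-5 ligase that Vif recruits against APOBEC3 proteins were divided in direction. Of 7 tested, 2 rose and 2 fell in OCI-LY19 (34.5% of all genes higher, 23.7% lower), and 2 rose and 3 fell in SUDHL5 (18.6% higher, 19.9% lower). In OCI-LY3 1 rose and 1 fell (40.4% higher, 14.3% lower). In HT 1 fell (22.9% higher, 9.41% lower), and none passed in OCI-LY19R. The largest change was in CBFB, the cofactor that Vif binds, with 21.5 ± 0.8 FPKM in treated OCI-LY19 and 38.7 ± 2.31 at 0 h (-0.82, adjusted p 1.11e-08).

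Some markers of other blood cells were also higher with doxorubicin, and in bulk RNA fewer cells of a type and less RNA per cell cannot be told apart. In SUDHL5 the summed T and NK cell markers were 18.0 to 19.8 FPKM with doxorubicin and 4.34 to 4.97 at 0 h, led by CD3E at 8.09 and 2.28, while CD8A had no read in either group and CD2 at most 0.0216 FPKM. In OCI-LY19 they were 6.68 to 9.90 FPKM with doxorubicin and 6.89 to 7.46 at 0 h, with CD3D, CD3E and CD3G at 0 in all 6 libraries. In HT, where APOBEC3C alone of the tested APOBEC3 genes passed, they were 2.23 to 2.66 FPKM with doxorubicin and 0.764 to 1.23 at 0 h. In OCI-LY3 they were 3.18 to 4.85 FPKM with doxorubicin and 1.18 to 1.85 at 0 h. The summed myeloid markers were 15.5 to 19.7 FPKM in treated OCI-LY19 and 6.08 to 9.79 at 0 h, with S100A9 at 0 in both. In SUDHL5 they were 3.63 to 4.49 FPKM with doxorubicin and 0.278 to 0.459 at 0 h. LYZ led both sums, at a mean of 12.1 FPKM in treated OCI-LY19 and 4.32 at 0 h, and of 3.79 in treated SUDHL5 and 0.247 at 0 h. PRF1, a T and NK cell marker, had a mean of 2.24 FPKM in treated OCI-LY19 and 0.0328 at 0 h, and of 1.25 in treated SUDHL5 and 0.0155 at 0 h. NKG7, the highest marker of that list in OCI-LY19, went the other way there, with a mean of 5.56 FPKM treated and 7.09 at 0 h. In SUDHL5 NKG7 had a mean of 1.54 FPKM treated and 1.12 at 0 h. The summed myeloid markers were 10.3 to 26.3 FPKM in OCI-LY19R and 7.14 to 16.4 in OCI-LY19S. In HT the myeloid sum was 8.37 to 11.8 FPKM with doxorubicin and 8.52 to 9.77 at 0 h. In OCI-LY3 it was 0.215 to 0.661 FPKM with doxorubicin and 0.0944 to 0.178 at 0 h. The part of these marker genes of other blood cells in the APOBEC3 results was not tested.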

How the data were processed

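Per the labels' protocols, polyadenylated RNA of 30 libraries was prepared with a strand-keeping NEBNext Ultra II kit. The submitters' processing notes list Trimmomatic, STAR, featureCounts and hg38, with no versions. Neither annotation release nor strand setting is given in the sources used here. FPKM values were deposited by the authors in separately normalized tables, 1 for the 4 lines and 1 for OCI-LY19R and OCI-LY19S, so no test crosses tables. Deposited beside OCI-LY19R and OCI-LY19S, per the file headers, are the authors' mean signal, log2 fold change, score statistics and p-values.

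A gene was tested where 3 or more libraries reached FPKM 1, on log2(FPKM + 1), a scale that understates changes of low genes: 17645 genes in the 4 lines (8 groups, 16 residual degrees of freedom) and 12785 in the other table (4 residual degrees of freedom). limma 3.58.1 in R 4.3.3 gave two-sided moderated tests and F tests, with Benjamini-Hochberg adjustment over all genes tested and a threshold of 0.05. Whole reads recovered from the FPKM values (100.0% whole within 0.01 read) gave depth and a limma voom alternative. The fit was checked on simulated data. Replicate numbers paired the HT libraries, by deviations of same-numbered libraries from their group means that correlated at 0.167, 0.32 and 0.347, and these libraries also share a tag in their names whose meaning the labels do not give. Symbols came from the reference table for 60445 IDs. Members, lists and alternatives were chosen with earlier results of these data known. All 7 members are named throughout; other genes are from the 4 largest passing changes of each list in a comparison, CDKN1A, MDM2, NFKB2 and RELB, and the genes of like pattern. Sequence windows are from RefSeq (GRCh38.p14). The value of 1 listed gene is not reported here.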

Additional observations from a re-analysis of the deposited data

Results flagged for a closer look

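The response to 24 h of doxorubicin differed among the 4 lines for each tested APOBEC3 gene, by the moderated F test of limma with adjustment over all genes tested, of which 72.2% passed. For APOBEC3H the adjusted p was 1.67e-11, with changes in log2(FPKM + 1) of 0.76 in OCI-LY3, 0 in HT, 3.83 in OCI-LY19 and 3.29 in SUDHL5. All HT libraries had 0 reads. In OCI-LY3, OCI-LY19 and SUDHL5, 9 of 9 treated libraries lay above every untreated library of the same line. The share of all genes without overlap was not counted. APOBEC3H cleared the level filter mainly through treated OCI-LY19 and SUDHL5, where it is high, so this is a description.

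For APOBEC3G the adjusted p was 1.58e-08, with changes of 1.26 in OCI-LY3, -0.02 in HT, 1.72 in OCI-LY19 and 0.75 in SUDHL5. For APOBEC3C it was 5.3e-08, with changes of 1.48, 0.52, 2.13 and 1.53 in that order of lines. For APOBEC3F it was 1.05e-06, with changes of 0.83, 0.11, 1.27 and 0.49.

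For APOBEC3B it was 0.000824, with changes of 0.22, 0.20, 0.16 and 0.97. This call was lost with a pseudocount of 0.1 (0.148), on the TPM scale (0.0897) and on the recovered reads (0.0545).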

How the results depend on the processing

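Of 1195 member values under the alternatives, 1109 kept their direction and their side of the threshold, 61 lost a call, 19 gained one and 6 turned in sign. In HT, 1 member was called, against 3 with a pseudocount of 0.1, 2 on the TPM scale, 3 with limma voom on the recovered reads and 0 with the line fitted alone. In OCI-LY19R against OCI-LY19S, 3 members were called, against 0 with no filter and 0 to 3 when a library was left out. The count was 0 without replicate 2 of OCI-LY19S and without replicate 2 or 3 of OCI-LY19R. With a filter at FPKM 5 it was also 0, but none of these 3 genes clears that filter. They were not tested there, so that 0 says nothing of their calls. The other 93 of 102 counts of members stayed within 1.5 times.

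The 6 values that turned were differences of response. APOBEC3F in OCI-LY3 minus OCI-LY19, -0.45 on the log2(FPKM + 1) scale, was 0.557 with a pseudocount of 0.1 and 1.24 with voom. APOBEC3F in HT minus SUDHL5, -0.38, was 0.940 with voom. APOBEC3B in OCI-LY3 minus SUDHL5, -0.75, was 0.0886 with a pseudocount of 0.1 and 1.52 with voom, and in HT minus SUDHL5, -0.77, was 1.28 with voom. Both alternatives give more weight to the fold change of low genes. The cause was not tested.

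With the replicate number as a block, the replicate block called 4 members in OCI-LY3, 1 in HT, 4 in OCI-LY19, 5 in SUDHL5 and 2 in OCI-LY19R against OCI-LY19S, where APOBEC3F was lost (adjusted p 0.0607). Same-numbered libraries correlated at -0.012 to 0.362 in OCI-LY3, 0.036 to 0.355 in OCI-LY19, -0.02 to -0.014 in SUDHL5 and -0.115 to 0.118 in OCI-LY19R and OCI-LY19S, so only in HT did every pair correlate over 0.1. Same-numbered libraries of OCI-LY3, and replicates 1 and 3 of OCI-LY19, also share a tag in their names whose meaning the labels do not give. In OCI-LY19R against OCI-LY19S 57.0% of all calls were higher, or 44.9% with median-of-ratios scaling. Depth limits APOBEC3A, APOBEC3D and every member in HT, where few reads were counted.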
